A study of Mus musculus with 15 samples.

Results

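The Sp and Klf genes examined here were Sp1, Sp2, Sp3, Sp4, Klf4, Klf6, Klf9, Klf10, Klf13 and Klf15, which encode zinc finger transcription factors that bind GC-rich DNA. They were chosen by name, as 10 of the 53801 genes counted by RNA-seq in 15 cultures of adult neural stem cells (aNSCs). These are dividing cells taken from the subventricular zone of the mouse brain and kept in suspension with EGF and bFGF. The mice were of the mixed strain background C57BL6/J-129sv, were 2 months old, and carried the Rosa26-CreERT2 transgene in every group. Rosa26 drives the transgene in nearly all cell types, and 4-hydroxytamoxifen (4-OHT) lets the recombinase enter the nucleus and cut out the floxed part of Trrap, which encodes an adaptor of histone acetyltransferase complexes. The group called Fl/+ untreated held 5 cultures with 1 floxed and 1 wild-type Trrap allele and no 4-OHT. In Fl/+ 4-OHT, 5 cultures of the same genotype and from the same mice (19, 24, 26, 35 and 36) received 4-OHT, for 5 days by the labels, while the methods of the study describe the exposure differently. The third group, Fl/Fl 4-OHT, held 5 cultures with both alleles floxed, from mice 27, 28, 29, 37 and 39, given 4-OHT in the same way. Each group had 3 cultures labelled male and 2 labelled female. No Fl/Fl culture without 4-OHT was analysed here, and the Fl/+ 4-OHT cultures can lose 1 Trrap allele, so they are a control for 4-OHT and the recombinase and not a wild type. Each library held between 25720034 and 32187097 assigned counts.

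Sp and KLF proteins share 3 zinc fingers at the C-terminus, by which Sp factors prefer the GC box and KLF factors the GC box or the related CACCC box. Sp1 and Sp3 are present in most tissues and compete for the same sites, whereas Sp4 is enriched in neurons. Sp1 recruits the general transcription machinery and coactivators with acetyltransferase activity, and Klf9, Klf10 and Klf13 bind the corepressor Sin3a. Klf9 and Klf15 are known targets of the glucocorticoid receptor, and Klf10 was first described as an early gene of the transforming growth factor beta (TGF-beta) response. The study asked whether Sp1-dependent transcription needs Trrap, and the comparisons below describe the mRNA of Sp1 and its relatives, not their binding or activity.

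RefSeq starts on GRCm38.p6 were found for 9 of the 10 genes (all but Klf10), and the 250 bases before the most upstream start held the GC box, searched as GGGCGG or CCGCCC, in 7 of the 9. The same search found it before the most upstream start of 33.0% of 27025 genes, and before 32.7% of all 32851 starts. The CACCC box, searched as CACCC or GGGTG, stood before 6 of the 9 genes and before 51.3% of all genes. The share of G and C in these windows ran from 54.0% to 80.0%, against a median of 52.0% over all genes. Sp1, Sp4 and Klf4 each had 4 GC boxes, Klf13 had 3, Sp3 had 2, Klf6 and Klf15 had 1, and Sp2 and Klf9 had none. For Sp1 only 2 of the 4 lie before its first annotated exon, and those 81 and 62 bases before the RefSeq start lie past the beginning of that exon. Further starts are listed for Sp2, where 1 of its 3 windows held 1 GC box, and for Sp3, whose second window held 5. Shown are the windows of Sp1, Sp2, Sp3 and Klf13, the members with a RefSeq start that passed the test without pairing by mouse in at least 1 comparison. They are Sp1 at chr15:102406066-102406142 on the plus strand, of which only the bases before the first annotated exon are shown, and 3 windows on the minus strand, Sp2 at chr11:96982960-96983209, Sp3 at chr2:72980447-72980696 and Klf13 at chr7:63938916-63939165. Capitals mark the GC boxes and CACCC boxes, which overlap at 1 place, in Klf13.
Sp1: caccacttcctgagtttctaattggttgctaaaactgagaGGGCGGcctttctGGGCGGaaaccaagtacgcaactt
Sp2: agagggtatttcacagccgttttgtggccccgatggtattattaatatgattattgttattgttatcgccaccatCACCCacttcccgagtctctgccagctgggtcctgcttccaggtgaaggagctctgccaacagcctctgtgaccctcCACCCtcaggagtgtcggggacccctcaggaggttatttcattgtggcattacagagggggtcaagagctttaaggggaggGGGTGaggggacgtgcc
Sp3: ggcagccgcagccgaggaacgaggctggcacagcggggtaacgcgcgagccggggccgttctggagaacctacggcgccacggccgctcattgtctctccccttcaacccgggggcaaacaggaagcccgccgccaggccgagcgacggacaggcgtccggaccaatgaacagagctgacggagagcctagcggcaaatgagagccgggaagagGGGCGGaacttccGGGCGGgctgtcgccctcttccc
Klf13: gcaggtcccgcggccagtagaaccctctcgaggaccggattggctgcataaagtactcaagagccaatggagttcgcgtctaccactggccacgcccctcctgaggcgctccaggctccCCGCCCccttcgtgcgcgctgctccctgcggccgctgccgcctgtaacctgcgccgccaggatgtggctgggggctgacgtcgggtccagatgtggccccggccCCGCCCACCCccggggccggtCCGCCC
In the printed stretches Sp3 carried both of its GC boxes close to the start, and Sp2 carried 3 CACCC boxes and no GC box. A match of letters is a description of the sequence and not evidence of a bound factor.

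The cultures and libraries were checked before the members were compared. Trrap stood at 193, 214, 184, 179 and 181 CPM (the count relative to the library's total, scaled by the TMM method) in Fl/+ untreated cultures of mice 19, 24, 26, 35 and 36. After 4-OHT the Fl/+ cultures of the same mice had 138, 204, 171, 165 and 142 CPM. The Fl/Fl 4-OHT cultures of mice 27, 28, 29, 37 and 39 had 92.9, 115, 142, 89.2 and 82.8 CPM, so only the library labelled Fl/Fl 29 lay within the range of the Fl/+ 4-OHT cultures. Between the 2 groups given 4-OHT, Trrap fell by 0.64 on the log2 scale (SE 0.160, with an adjusted p from edgeR of 0.0115). The log2 fold change was -0.791 (adjusted p 0.0029) without the Fl/Fl library 29 and -0.575 (adjusted p 0.0243) without 39. Counts cover all exons of the gene, and fewer cells that express a gene and less of its RNA per cell cannot be told apart in such bulk samples. 1 library of the Fl/Fl 4-OHT group, from mouse 39, had sex-linked transcripts that did not match its labelled sex. For calls of Trrap and of Sp and Klf genes that use the Fl/Fl group, and for such list counts, values or counts without the libraries 29 and 39 are therefore given as well. Fold changes of single genes of the other lists are given with all libraries.

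The 8 neural stem cell markers, among them Nes, Sox2, Pax6, Egfr and Msi1, were expressed in every group, with summed levels of 2440 to 2730 CPM in Fl/+ untreated, 2210 to 2730 CPM in Fl/+ 4-OHT and 1650 to 2530 CPM in Fl/Fl 4-OHT cultures. Some markers of other neural cells differed between groups. The 6 oligodendrocyte markers summed to 211 to 702 CPM without 4-OHT (median 458), 557 to 1090 CPM in Fl/+ 4-OHT (median 786) and 670 to 2690 CPM in Fl/Fl 4-OHT cultures (median 749), with 4 of 6 higher in Fl/+ 4-OHT than in Fl/+ untreated cultures and 5 of 6 higher in Fl/Fl 4-OHT than in Fl/+ untreated cultures, and none called after Trrap deletion, the comparison of Fl/Fl 4-OHT with Fl/+ 4-OHT cultures. The myelin gene Mog was at or under the floor of 3 counts on average without 4-OHT. Astrocyte markers summed to 1570 to 2310, 2210 to 3360 and 1830 to 4910 CPM in the same order of groups, with medians of 1980, 2730 and 2190 CPM, and with both directions among the genes called with 4-OHT and none of 5 called after Trrap deletion. Most of this sum was Aldh1l1, at 1500, 1790 and 1540 CPM on average. Neuron markers summed to 832 to 1100, 815 to 999 and 555 to 806 CPM, and none of 6 was called with 4-OHT in Fl/+ cultures. Markers of microglia were near absent, with at most 1.15 CPM in all 5 and C1qa at 0 in every library. Endothelial markers summed to at most 8.53 CPM, fibroblast markers to 29.9 to 306 CPM, nearly all of it Pdgfra, which oligodendrocyte precursors also express, and ependymal markers to 28.5 to 104 CPM. The share of mitochondrial counts was 1.72% to 3.56%, 0.849% to 1.74% and 1.36% to 2.19% in the same order. The part of these differences in the levels of Sp and Klf genes was not tested.

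Per length of exon, Klf10 had the highest level of the 10 genes in all 3 groups, and Klf4 and Sp4 the lowest. In Fl/+ untreated cultures Klf10 reached 47.6 ± 9.26 CPM per kb (mean ± SD, n = 5). Its lowest culture, at 31.7 CPM per kb, lay above the highest culture of Sp3, at 26.5 CPM per kb. Sp3 followed with 23.1 ± 2.96 CPM per kb and Klf6 with 16.7 ± 2.51 CPM per kb. Klf13, Klf15, Sp1, Klf9 and Sp2 lay between 13.2 and 9.69 CPM per kb, and the ranges of all neighbours from Sp3 down to Sp2 overlapped. A gap separated Sp2 from Klf4 at 2.63 ± 0.724 CPM per kb and Sp4 at 2.48 ± 0.478 CPM per kb, which overlapped each other. In Fl/+ 4-OHT cultures Klf10 stood at 62.6 ± 11.7 CPM per kb and in Fl/Fl 4-OHT cultures at 67.7 ± 14.6 CPM per kb. Klf15 ranked 5 of 10 without 4-OHT, at 13.1 CPM per kb, and 8 of 10 in both groups given 4-OHT, at 7.86 and 7.22 CPM per kb. The ratio of Sp3 to Sp1 per length was 1.65 to 2.24 in Fl/+ untreated, 1.01 to 1.37 in Fl/+ 4-OHT and 1.18 to 1.57 in Fl/Fl 4-OHT cultures, so that the untreated cultures stood apart from both groups given 4-OHT. Other ratios overlapped between Fl/+ untreated and Fl/+ 4-OHT cultures. Sp4 to Sp1 was 0.165 to 0.264 and 0.144 to 0.169 in these groups, and Sp2 to Sp1 was 0.631 to 0.96 and 0.529 to 0.705. Klf15 to Klf9 and Klf4 to Sp1 overlapped as well. How often ratios of other gene pairs stand apart was not tested.

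**Figure D1:**
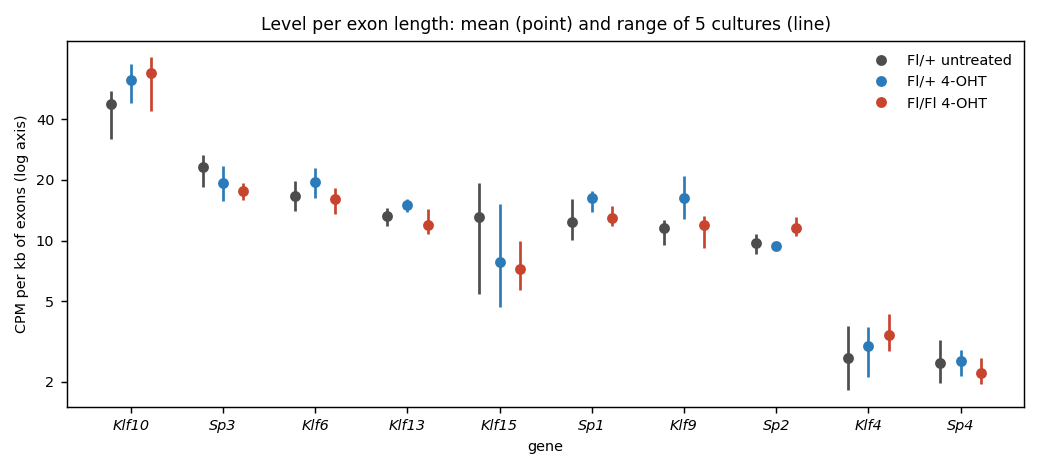
Level of each Sp and Klf gene per kb of exons on a log axis, as the mean (point) and the range (line) of 5 cultures in each group. Klf10 lies highest, at 47.6 to 67.7 CPM per kb on average, and Klf4 and Sp4 lie lowest, at 2.20 to 3.40 CPM per kb.

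All 10 members passed the filter on low counts in all 3 comparisons. The highest group mean was in Fl/+ 4-OHT cultures for 5 of them (Sp1, Sp4, Klf6, Klf9 and Klf13), in Fl/Fl 4-OHT cultures for 3 (Sp2, Klf4 and Klf10) and in Fl/+ untreated cultures for 2 (Sp3 and Klf15). Values for each culture follow below, always in the order of mice 19, 24, 26, 35 and 36 for Fl/+ and 27, 28, 29, 37 and 39 for Fl/Fl.

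**Figure D2:**
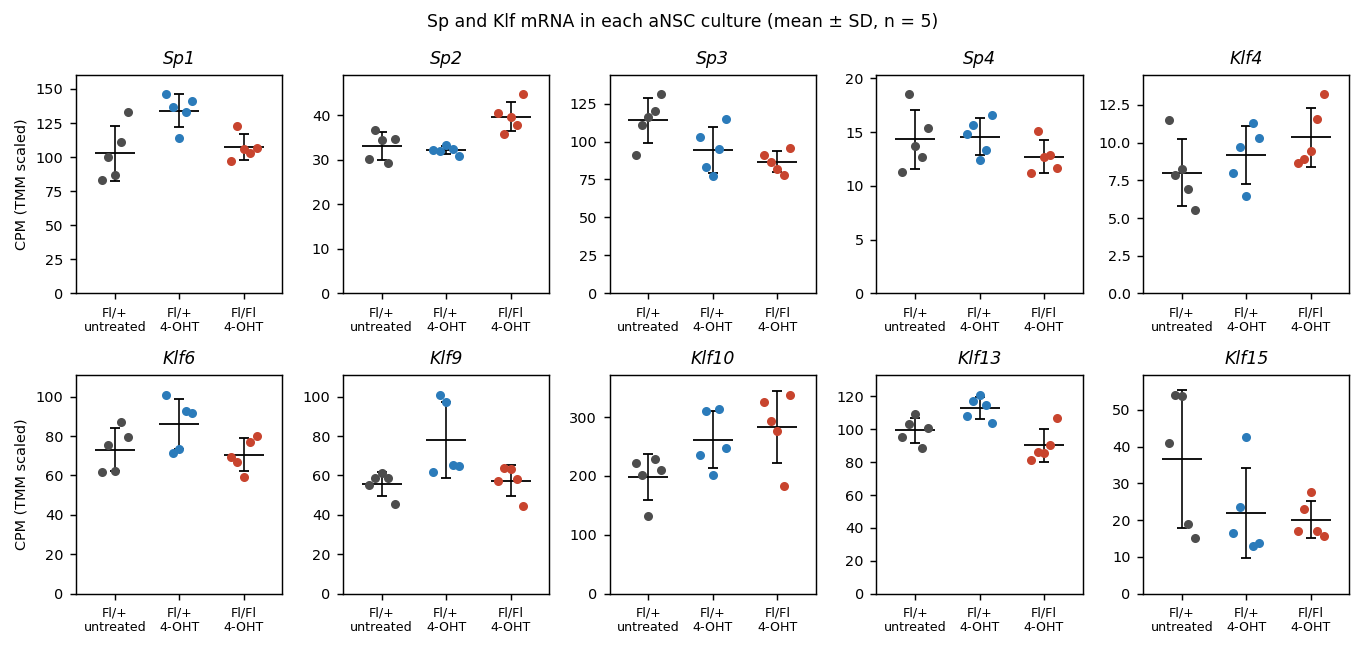
CPM of the 10 genes in each culture, with 1 point per culture in order of mouse number, the group mean as a horizontal line and the SD as an error bar. In Fl/Fl 4-OHT cultures Sp2 (35.9 to 44.7 CPM) lies above every Fl/+ 4-OHT culture (30.8 to 33.3 CPM), and Klf15 spreads from 15.1 to 54.1 CPM among Fl/+ untreated cultures.

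The comparison of Fl/Fl 4-OHT with Fl/+ 4-OHT cultures set cultures that can lose both Trrap alleles against cultures of other mice that can lose 1, and is called Trrap deletion here. Sp2 was higher and Sp1 and Klf13 were lower in Fl/Fl cultures, by about a fold of 1.25, 0.808 and 0.806, and the other 7 members did not pass the test. This made 3 of 10 members called at an adjusted p under 0.05, against 31.7% of the 15036 genes tested. 1 of 10 was higher and 2 of 10 were lower, beside 16.8% and 15.0% of all genes. The median log2 fold change was -0.15 over the members and 0.0173 over all genes tested. A count of 3 lies at the background of this comparison, in which a large part of the transcriptome moved.

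Sp1 (ENSMUSG00000001280, GRCm38 chromosome 15, 102406143 to 102436404, plus strand), the founding member and a general activator, stood at 83.4, 100, 86.8, 111 and 133 CPM in Fl/+ untreated cultures. Its level in Fl/+ 4-OHT cultures was 146, 137, 114, 133 and 141 CPM. In Fl/Fl 4-OHT cultures it was 97.2, 123, 106, 103 and 107 CPM. Every Fl/Fl culture lay within the range of the untreated cultures, and 4 of the 5 Fl/+ 4-OHT cultures, all but that of mouse 26, lay above all Fl/Fl cultures. For Fl/Fl 4-OHT over Fl/+ 4-OHT cultures edgeR's quasi-likelihood test gave Sp1 a log2 fold change of -0.31 (SE 0.0822, adjusted p 0.0156), and the exact two-sided permutation p was 0.0159. It was -0.32 (adjusted p 0.0265) without the Fl/Fl library 29 and -0.31 (adjusted p 0.0289) without 39. Against Fl/+ untreated cultures the Fl/Fl 4-OHT cultures differed in Sp1 by 0.08 (SE 0.125, adjusted p 0.683). Both comparisons use the same Fl/Fl libraries. The difference from Fl/+ 4-OHT cultures passed in all settings but a fit over all 15 libraries, which gave an adjusted p of 0.0507.

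Sp2 (ENSMUSG00000018678, chromosome 11, 96953341 to 96982959, minus strand) is a divergent Sp factor that is found at promoters bound by NF-Y. It had 30.3, 36.7, 34.4, 29.3 and 34.6 CPM in Fl/+ untreated cultures. In Fl/+ 4-OHT cultures the values were close together, at 32.2, 31.9, 33.3, 32.5 and 30.8 CPM. Fl/Fl 4-OHT cultures had 40.5, 35.9, 39.6, 37.9 and 44.7 CPM. All 5 Fl/Fl cultures lay above all Fl/+ 4-OHT cultures, which held for 22.6% of all genes tested in either direction, and Sp2 was the only member without overlap here. The estimate for Sp2 was 0.32 on the log2 scale (SE 0.0739, adjusted p 0.00768, exact two-sided permutation p 0.00794, the smallest that 5 against 5 cultures allow). The call held in every alternative, with estimates between 0.27 and 0.35, and with an adjusted p of 0.0198 without the Fl/Fl library 29 and 0.0226 without 39. On the opposite strand Sp2 overlaps D030028A08Rik, which the authors' strand-specific counting keeps apart.

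Klf13 (ENSMUSG00000052040, chromosome 7, 63886351 to 63938915, minus strand), a Sin3a-binding factor, had 95.0, 103, 109, 88.9 and 101 CPM in Fl/+ untreated cultures. With 4-OHT the Fl/+ cultures had 108, 117, 121, 115 and 104 CPM. The Fl/Fl 4-OHT cultures had 81.6, 85.9, 85.7, 90.6 and 107 CPM. Of the Fl/Fl cultures, only that of mouse 39 reached into the range of the Fl/+ 4-OHT cultures. Klf13 was lower by a log2 fold change of -0.31 (SE 0.0818, adjusted p 0.0145), of -0.31 (adjusted p 0.0291) without the Fl/Fl library 29, and of -0.39 (adjusted p 0.00366) without 39. The call held in every alternative.

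Among the 7 members that did not pass, Klf9 and Klf6 came nearest. Klf9 was estimated at -0.43 (log2, SE 0.164, adjusted p 0.0665) and passed with DESeq2 (adjusted p 0.0389), with one fit over 15 libraries (0.0390) and when the Fl/+ 4-OHT library 19 (0.0457) or 36 (0.0480) was left out. Klf6 had -0.27 (SE 0.111, adjusted p 0.0798) and passed without the Fl/+ 4-OHT library 24 (0.0381) or 26 (0.0444). The log2 fold changes of Sp3 and Sp4 were -0.11 (SE 0.106) and -0.18 (SE 0.117), with adjusted p of 0.449 and 0.259. Klf4 and Klf10 had 0.19 (SE 0.175) and 0.13 (SE 0.171), with adjusted p of 0.435 and 0.600. For Klf15 the estimate of -0.11 had an SE of 0.317, and it turned to 0.27 without the Fl/+ 4-OHT library 26. Before adjustment 5 members had a p under 0.05 in this comparison, Sp1, Sp2, Klf6, Klf9 and Klf13, as did 43.0% of all genes tested.

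**Figure D3:**
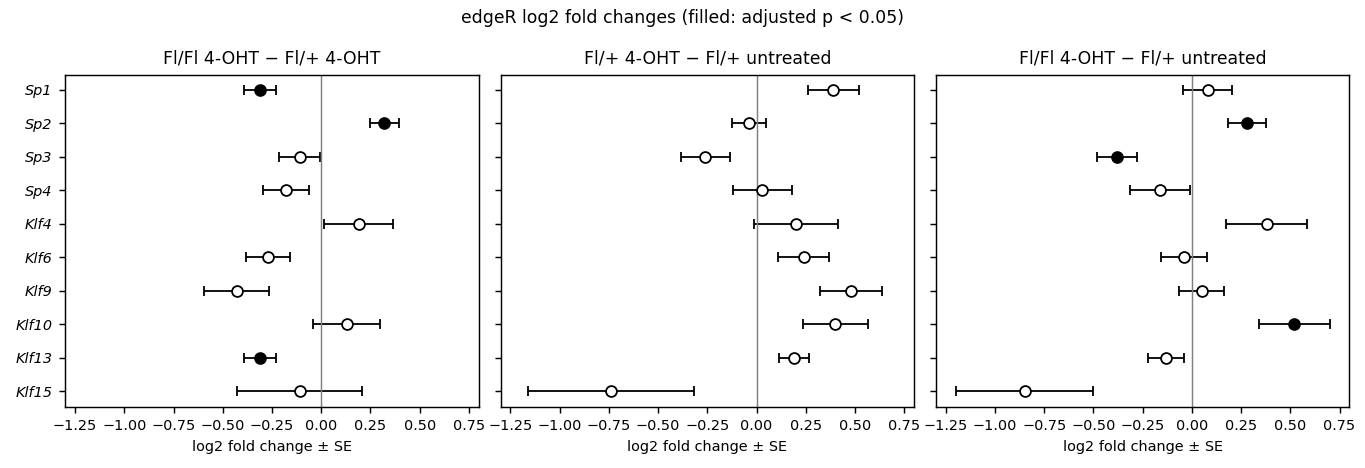
Log2 fold change of each member with its SE in the 3 comparisons, from edgeR, with filled points for an adjusted p under 0.05. Filled are Sp1, Sp2 and Klf13 on the left and Sp2, Sp3 and Klf10 on the right, and none in the middle panel, which shows the fit without pairing by mouse.

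The comparison of Fl/+ 4-OHT with Fl/+ untreated cultures addressed what 4-OHT, the active recombinase and the possible loss of 1 Trrap allele changed together, which cannot be told apart in this design. No member passed edgeR's test without pairing, where 13.8% of 14821 genes did (7.34% higher and 6.45% lower). Before adjustment 4 members had a p under 0.05 (Sp1, Klf9, Klf10 and Klf13), as did 29.4% of all genes, and DESeq2 called 1 member, Klf9, and 16.6% of the 18134 genes to which it gave an adjusted p. The cultures of both groups came from the same 5 mice, and with the mouse as a replicate block 4 of 10 members passed, Sp1, Klf9 and Klf10 higher and Klf15 lower. With the block 25.7% of all genes were called, 13.8% higher and 11.9% lower. The median log2 fold change of the members was 0.19 without the block, and -0.0113 over all genes. Under scaling by library size alone the genes called split into 1396 higher and 712 lower, against 1088 and 956 with TMM, and Sp1 (adjusted p 0.0419) and Klf9 (0.0340) passed.

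With 4-OHT Sp1 was higher in the Fl/+ culture of every mouse (5 of 5), by 0.80, 0.45, 0.40, 0.26 and 0.09 on the log2 scale in mice 19, 24, 26, 35 and 36. The rise was largest in mouse 19, with the least Sp1 without 4-OHT, and smallest in mouse 36, with the most. Each rise is measured from that same untreated value, so such an order can arise without any difference in response, and it was not tested. Without pairing the estimate was 0.39 (SE 0.128, adjusted p 0.0670), and it was 0.40 (SE 0.102, adjusted p 0.0225) with the block. The exact two-sided sign-flip p over the 5 mice was 0.0625, the smallest that 5 pairs allow.

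Klf9 (ENSMUSG00000033863, chromosome 19, 23141226 to 23168134, plus strand), a hormone-responsive repressor, had 55.3, 58.6, 61.3, 58.6 and 45.7 CPM in Fl/+ untreated cultures. After 4-OHT the same mice gave 61.8, 101, 97.4, 65.4 and 64.6 CPM. In Fl/Fl 4-OHT cultures Klf9 stood at 57.1, 63.9, 63.3, 58.2 and 44.5 CPM. It was the only member whose Fl/+ 4-OHT cultures all lay above the untreated ones, which held for 12.0% of all genes in either direction, and the cultures of mice 24 and 26 stood far above the other 3. For Klf9 edgeR gave a log2 fold change of 0.48 (SE 0.157, adjusted p 0.0633), and 0.46 (SE 0.108, adjusted p 0.0176) with the block. The Fl/Fl 4-OHT cultures overlapped the untreated ones, with a log2 fold change of 0.05 (SE 0.114, adjusted p 0.763).

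Klf10 (ENSMUSG00000037465, chromosome 15, 38291463 to 38300706, minus strand), the TGF-beta inducible member, was at 222, 201, 132, 229 and 210 CPM in Fl/+ untreated cultures. The Fl/+ 4-OHT cultures had 236, 310, 201, 314 and 248 CPM. Fl/Fl 4-OHT cultures had 325, 293, 276, 183 and 338 CPM. Klf10 was higher after 4-OHT in 5 of 5 mice, by 0.09 to 0.63 on the log2 scale, and 4 of the 5 Fl/Fl cultures lay above all untreated ones, with that of mouse 37 below 4 of them. The estimate in Fl/+ cultures was 0.40 (SE 0.166, adjusted p 0.133), or 0.41 with the block (SE 0.0956, adjusted p 0.0175).

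Klf15 (ENSMUSG00000030087, chromosome 6, 90462576 to 90475238, plus strand), a glucocorticoid-induced regulator of metabolism, had the widest spread of the 10 genes relative to its mean in Fl/+ untreated cultures. Its level in Fl/+ untreated cultures was 41.1, 54.1, 53.8, 19.0 and 15.1 CPM. With 4-OHT it was 16.6, 23.7, 42.5, 13.0 and 13.8 CPM. The Fl/Fl 4-OHT cultures had 17.1, 23.1, 27.7, 17.1 and 15.8 CPM. Cultures of mice 19, 24 and 26 were high without 4-OHT and those of mice 35 and 36 were low, and Klf15 was lower with 4-OHT in 5 of 5 mice, by 1.28, 1.18, 0.34, 0.53 and 0.13 on the log2 scale. Its log2 fold change was -0.74 (SE 0.421, adjusted p 0.272), and -0.71 (SE 0.178, adjusted p 0.0224) with the block. Klf9, the other glucocorticoid-responsive member, was higher in the same 5 mice.

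**Figure D4:**
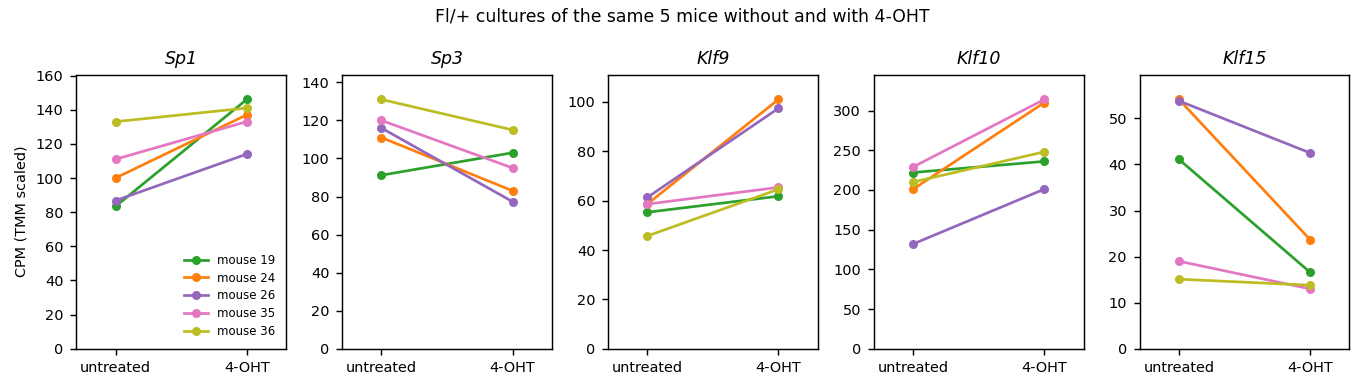
CPM of Sp1, Sp3, Klf9, Klf10 and Klf15 in the Fl/+ cultures of each of 5 mice without and with 4-OHT, joined by lines. The lines of Sp1, Klf9 and Klf10 rise in 5 of 5 mice and those of Klf15 fall in 5 of 5, while Sp3 is higher with 4-OHT in 1 mouse.

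The remaining members gave smaller or mixed differences after 4-OHT in Fl/+ cultures. Klf13 was higher in 5 of 5 mice, by 0.04 to 0.37 on the log2 scale (estimate 0.19, SE 0.0762, adjusted p 0.124). Klf6, an activator induced by tissue injury, was higher in 4 of 5 mice (0.24, SE 0.129, adjusted p 0.249). Sp3 was lower in 4 of 5 mice (-0.26, SE 0.126, adjusted p 0.193). The estimates for Sp4 (0.03, SE 0.150) and Sp2 (-0.04, SE 0.0868) were smaller than their SE and turned sign in some alternatives. Klf4 had 0.20 (SE 0.214, adjusted p 0.585), with 3 of 5 mice higher.

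The comparison of Fl/Fl 4-OHT with Fl/+ untreated cultures sets cells with both changes against cells with neither, and shares libraries with the other comparisons. Klf10 and Sp2 were higher and Sp3 was lower, by folds of 1.44, 1.21 and 0.769. Here 3 of 10 members passed, 2 higher and 1 lower, against 30.7% of 15032 genes (15.7% higher and 15.1% lower), and no member's groups were free of overlap, against 23.1% of all genes. The median log2 fold change was 0.01 over the members and 0.00248 over all genes. Scaling by library size alone moved the split of all genes called from 2357 higher and 2263 lower to 3150 higher and 1603 lower.

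Sp3 (ENSMUSG00000027109, chromosome 2, 72936427 to 72980446, minus strand), which competes with Sp1 and occurs as activating and repressing forms, stood at 91.2, 111, 116, 120 and 131 CPM in Fl/+ untreated cultures. Fl/+ 4-OHT cultures had 103, 83.0, 77.3, 95.0 and 115 CPM. In Fl/Fl 4-OHT cultures it was 91.0, 86.6, 81.8, 78.2 and 95.9 CPM. 4 of the 5 untreated cultures lay above every Fl/Fl culture, and that of mouse 19 lay among them. Sp3 was lower by a log2 fold change of -0.38 (SE 0.0998, adjusted p 0.0147, exact two-sided permutation p 0.0159), and it passed in every alternative, with adjusted p of 0.0038 to 0.048. The adjusted p was 0.0386 without the Fl/Fl library 29 and 0.0176 without 39. The counts are sums per gene, so the forms of Sp3 were not told apart, and Gm11084 and Gm25960 overlap it on the same strand.

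The rises of Klf10 and Sp2 over untreated cultures were less stable. Klf10 was estimated at 0.52 (log2, SE 0.180, adjusted p 0.0455) and lost the call in 8 of the 10 fits that left out 1 library, with adjusted p of 0.0758 without the Fl/Fl library 29 and 0.101 without 39. Sp2 had 0.28 (SE 0.0956, adjusted p 0.0470) and lost the call in 8 of those 10 fits, with 0.0794 without the Fl/Fl library 29 and 0.109 without 39. It was also lost with DESeq2's size factors (0.0508) and with no filter on low counts (0.0948). Sp3 was thus the only member called without either of the libraries 29 and 39. The Fl/Fl culture of mouse 28, at 35.9 CPM of Sp2, lay below the highest untreated culture. Klf15 had the largest estimate, -0.85 (SE 0.347, adjusted p 0.0851), and passed with DESeq2 (0.0445) and without the untreated library 35 (0.0397) or 36 (0.0196), the 2 with the least Klf15. Klf4, a factor used in reprogramming to pluripotency, had 0.38 (SE 0.206, adjusted p 0.182). Sp1, Sp4, Klf6, Klf9 and Klf13 had log2 fold changes from -0.16 to 0.08 and adjusted p of 0.327 to 0.829.

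Sp4 (ENSMUSG00000025323, chromosome 12, 118234933 to 118301440, minus strand), Klf4 (ENSMUSG00000003032, chromosome 4, 55527143 to 55532466, minus strand) and Klf6 (ENSMUSG00000000078, chromosome 13, 5861482 to 5870394, plus strand) passed in none of the 3 comparisons. Sp4 ranged over 11.3 to 18.5 CPM in Fl/+ untreated, 12.4 to 16.6 CPM in Fl/+ 4-OHT and 11.2 to 15.1 CPM in Fl/Fl 4-OHT cultures. Klf4 ranged over 5.56 to 11.5, 6.48 to 11.3 and 8.64 to 13.2 CPM in the same groups. Klf6 ranged over 61.7 to 87.0, 71.6 to 101 and 59.4 to 80.0 CPM. All 3 groups overlapped for each of these genes.

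The other 16 Sp and Klf genes of the mouse were looked at for comparison, and 11 of them passed the filter in each comparison. Sp5, Sp7, Klf1, Klf14 and Klf17 did not, with group means of at most 0.252 CPM. After Trrap deletion 3 of the 11 were called, all lower in Fl/Fl 4-OHT than in Fl/+ 4-OHT cultures (Klf7, Klf8 and Klf12), a share of 27.3%, while 31.7% of all genes were called and 15.0% were called lower. With 4-OHT in Fl/+ cultures 3 were called against 13.8% of all genes, Klf7 higher and Sp9 and Klf16 lower. This count and the later list counts for 4-OHT in Fl/+ cultures are from the fit without pairing by mouse. Klf7, Sp9 and Klf16 also passed edgeR's test with the mouse as a block (adjusted p 0.00125, 0.000693 and 0.00473). Between Fl/Fl 4-OHT and untreated cultures 3 were called against 30.7% of all genes, Sp9, Klf11 and Klf12, all lower. Without the Fl/Fl library 29 or 39 there were 2 calls after Trrap deletion (Klf7 and Klf12). Against untreated cultures there were 2 without library 29 (Sp9 and Klf11) and 3 without 39 (Sp9, Klf11 and Klf16).

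Klf7, which promotes axon growth in developing neurons, was, like Sp1 and Klf9, highest on average in Fl/+ 4-OHT cultures. It had 67.3, 88.8, 67.7, 73.8 and 70.3 CPM in Fl/+ untreated cultures. After 4-OHT these mice gave 96.5, 135, 111, 103 and 95.2 CPM. Fl/Fl 4-OHT cultures had 69.7, 75.7, 82.1, 67.3 and 57.9 CPM. The Fl/+ 4-OHT cultures lay above all cultures of both other groups. Groups did not overlap, in either direction, for 12.0% of all genes with 4-OHT in Fl/+ cultures and for 22.6% after Trrap deletion. By edgeR it was higher by 0.56 on the log2 scale (SE 0.115, adjusted p 0.0102) with 4-OHT, and its estimates were -0.60 (SE 0.120, adjusted p 0.00371) after Trrap deletion, and -0.05 (SE 0.109, adjusted p 0.776) between Fl/Fl 4-OHT and untreated cultures. After Trrap deletion the adjusted p of Klf7 was 0.0036 without the Fl/Fl library 29 and 0.00751 without 39. These estimates share libraries and are not independent of each other.

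Klf12, a repressor that works with CtBP proteins, had the lowest values in Fl/Fl 4-OHT cultures. Its level was 50.2, 50.0, 53.7, 64.9 and 77.2 CPM in Fl/+ untreated and 74.9, 85.4, 68.2, 72.4 and 71.4 CPM in Fl/+ 4-OHT cultures. In Fl/Fl 4-OHT cultures it was 48.5, 49.7, 40.4, 29.9 and 43.8 CPM, below every culture of both other groups. The highest Fl/Fl culture, at 49.7 CPM, lay just under the lowest untreated one, at 50.0 CPM. Groups did not overlap, in either direction, for 22.6% of all genes after Trrap deletion and for 23.1% against untreated cultures. Against Fl/+ 4-OHT cultures its log2 fold change was -0.80 (SE 0.129, adjusted p 0.00118), called in every alternative, with 0.00338 without the Fl/Fl library 29 and 0.00289 without 39. Against untreated cultures it was -0.47 (SE 0.160, adjusted p 0.0452), a call that was lost with scaling by library size alone (-0.37, adjusted p 0.108), with no filter (0.0617), with 10 counts in every library (0.0514) and in 7 of the 10 fits that left out 1 library, with adjusted p of up to 0.0919. Klf8, a weakly expressed relative that also binds CtBP, had 1.19 CPM on average in Fl/+ 4-OHT and 0.552 CPM in Fl/Fl 4-OHT cultures (-1.09, SE 0.363, adjusted p 0.0405) and lost its call with no filter (0.0611) and in 8 of the 10 fits that left out 1 library, with 0.0819 without the Fl/Fl library 29 and 0.0815 without 39.

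Sp9, a factor of developing interneurons and the olfactory bulb, fell by 1.56 on the log2 scale with 4-OHT in Fl/+ cultures, from 10.3 to 3.49 CPM (SE 0.376, adjusted p 0.0200). It was lower in 5 of 5 mice, with an adjusted p of 0.0523 without the Fl/+ 4-OHT library 19. Between Fl/Fl 4-OHT and untreated cultures Sp9 had -1.10 (SE 0.284, adjusted p 0.0133), with 0.00725 without the Fl/Fl library 29 and 0.0277 without 39. Klf16, a Sin3a-binding relative of Klf9, fell by 0.60 from 34.1 to 22.5 CPM (SE 0.0979, adjusted p 0.00321), also in 5 of 5 mice and without overlap. Such groups without overlap, in either direction, were found for 12.0% of all genes with 4-OHT in Fl/+ cultures. Klf11, which resembles Klf10 and binds Sin3a, had 8.89 CPM in Fl/+ untreated, 4.53 CPM in Fl/+ 4-OHT and 2.85 CPM in Fl/Fl 4-OHT cultures, with a log2 fold change of -1.63 between Fl/Fl 4-OHT and untreated cultures (SE 0.393, adjusted p 0.00950, and 0.0161 without the Fl/Fl library 29 or 0.0200 without 39). Klf3, a CtBP-binding repressor, had means of 173, 175 and 183 CPM in the 3 groups and adjusted p of 0.599 to 0.939. Sp6, Klf2 and Klf5 stayed at or under 3.06 CPM on average, and none passed. Sp8, the close relative of Sp9, ran from 0.0700 to 9.24 CPM among Fl/+ untreated cultures and from 0.316 to 8.77 CPM among Fl/+ 4-OHT cultures, and did not pass.

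**Figure D5:**
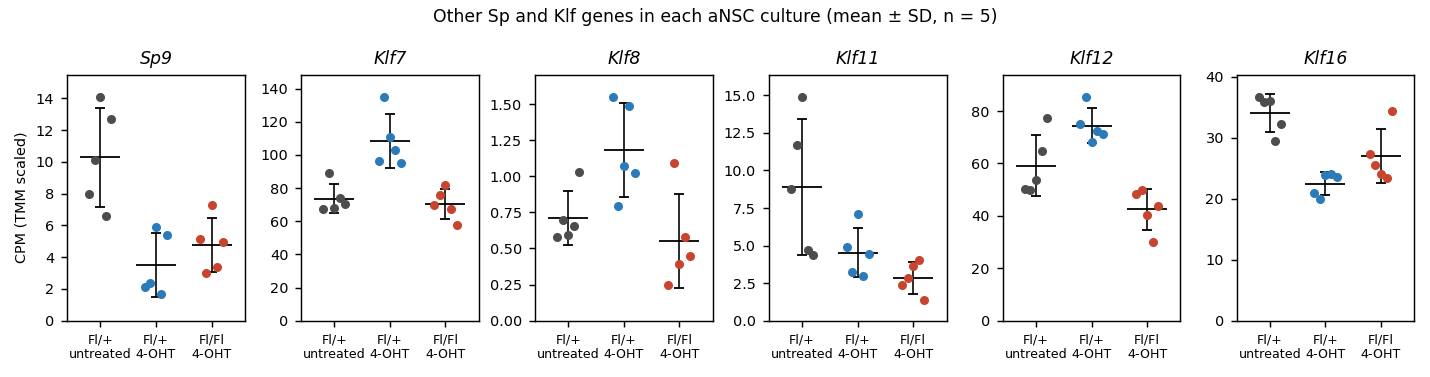
CPM of the 6 other Sp and Klf genes that passed the test without pairing by mouse in at least 1 comparison, with 1 point per culture, the mean as a line and the SD as an error bar. Klf7 is highest in Fl/+ 4-OHT cultures (95.2 to 135 CPM), Klf12 is lowest in Fl/Fl 4-OHT cultures (29.9 to 49.7 CPM), and Sp9 and Klf16 are highest on average in Fl/+ untreated cultures.

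Partner proteins of the family were counted as a list of 17 genes for coactivators, corepressors, NF-Y subunits and parts of the general transcription machinery. Of these, 8 were called after Trrap deletion (47.1%), against 31.7% of all genes. Of the 17 genes 7 were called lower in Fl/Fl cultures, as were 15.0% of all genes, and the median log2 fold change of the list was -0.20. For 7 of the 17 every Fl/Fl culture lay below all Fl/+ 4-OHT cultures, where 22.6% of all genes did not overlap in either direction. Without the Fl/Fl library 29 there were 8 calls, all lower, and without 39 there were 7, all lower. The largest were Nfyb, a subunit of the CCAAT-binding factor NF-Y (-0.55, SE 0.0794, adjusted p 0.000671), Taf4, a subunit of TFIID contacted by Sp1 (-0.45, SE 0.0709, adjusted p 0.000981), and the acetyltransferase gene Crebbp (-0.42, SE 0.0819, adjusted p 0.00348). With 4-OHT in Fl/+ cultures 2 were called (11.8%, against 13.8% of all genes), both lower, Taf7 (-0.46) and Nfyc (-0.36), and the median was 0.02. Fl/Fl 4-OHT cultures against untreated ones gave 8 calls (47.1%, against 30.7% of all genes), 7 lower and 1 higher, with Taf7 (-0.66), Hdac2 (-0.58) and Nfyc (-0.56) among the lower and a median of -0.12. There were 7 calls, 6 lower and 1 higher, both without the Fl/Fl library 29 and without 39. The summed level of the list was 1530 to 1620 CPM in Fl/+ untreated, 1600 to 1670 CPM in Fl/+ 4-OHT and 1320 to 1510 CPM in Fl/Fl 4-OHT cultures, so that each Fl/Fl culture lay below all Fl/+ cultures.

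A list of 9 genes known for GC boxes in their promoters did not move in 1 direction. After Trrap deletion 4 of 9 were called (44.4%, against 31.7% of all genes), 3 lower and 1 higher, and the median over the list was -0.47 on the log2 scale. Without the Fl/Fl library 29 or 39 the calls were 3 of 9, Ccnd1 higher and 2 lower, with Igf1r among them. The growth factor receptor gene Igf1r went from 62.8 to 41.7 CPM (-0.58, SE 0.115, adjusted p 0.00361). Ccnd1, which encodes cyclin D1, rose from 1710 to 2500 CPM (0.57, SE 0.142, adjusted p 0.0117). With 4-OHT in Fl/+ cultures 2 were called (22.2%, against 13.8% of all genes), the cell cycle inhibitor gene Cdkn1a higher (1.07, SE 0.167, adjusted p 0.00246) and Maoa, the monoamine oxidase A gene, lower (-0.34, SE 0.0860, adjusted p 0.0249), with a median of 0.19. Between Fl/Fl 4-OHT and untreated cultures Ccnd1 (1.31) and Cdkn1a (0.79) were the 2 higher of 4 calls and Igf1r (-0.50) was among the 2 lower, with a median of -0.23. The 4 calls (44.4%, against 30.7% of all genes) became 3 without the Fl/Fl library 29 and stayed 4 without 39.

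Lists for the signals that are known to induce Klf9, Klf15 and Klf10 were counted beside them. Of 7 glucocorticoid-responsive genes, 2 were called after Trrap deletion (28.6%, against 31.7% of all genes), both lower (Cdkn1c, -0.99, and Zbtb16, -0.62), with a median of -0.31 on the log2 scale. Zbtb16 was not called without the Fl/Fl library 29, and neither was called without 39. With 4-OHT in Fl/+ cultures 2 of 7 were called against 13.8% of all genes, both higher, Dusp1 (0.71, SE 0.184, adjusted p 0.0268) and Fkbp5 (0.59, SE 0.141, adjusted p 0.0200), with a median of 0.05, and the other 5 did not pass. Fl/Fl 4-OHT cultures against untreated ones gave 1 call of 7 (14.3%, against 30.7% of all genes), Tsc22d3 lower (-0.67, not called without the Fl/Fl library 39), with a median of -0.27. Without library 29 Fkbp5 was called as well, higher. Of 7 TGF-beta responsive genes, Ctgf rose after Trrap deletion from 0.979 to 4.52 CPM (2.21, SE 0.282, adjusted p 0.000347) and was the only call (14.3%), with a median of 0.07. With 4-OHT in Fl/+ cultures Tgfbi was the only 1 of 6 tested to be called (16.7%, against 13.8% of all genes), higher at 1.69, with a median of 0.17. Between Fl/Fl 4-OHT and untreated cultures 3 of 7 were higher (42.9%, against 30.7% of all genes called), among them Ctgf (2.84) and Tgfbi (2.76), with a median of 0.12, and both had group means of at most 4.52 CPM. The calls after Trrap deletion and against untreated cultures also held without the Fl/Fl library 29 or 39.

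The cell type lists gave the following counts, beside 31.7% of all genes called after Trrap deletion, 13.8% with 4-OHT in Fl/+ cultures and 30.7% between Fl/Fl 4-OHT and untreated cultures. After Trrap deletion 3 of 8 neural stem cell markers were lower (Hes5, Prom1 and Sox2, the last not without the Fl/Fl library 39), 2 of 6 neuron markers were lower (Dcx and Tubb3, the latter not without the Fl/Fl library 29 or 39), and none of the astrocyte, oligodendrocyte, microglia, endothelial, fibroblast or ependymal markers tested was called. With 4-OHT in Fl/+ cultures 3 of 8 neural stem cell markers were lower (Hes5 and Pax6 among them), 3 of 5 astrocyte markers were called (Gfap higher, Gjb6 and S100b lower), 4 of 6 oligodendrocyte markers were higher, and Pdgfra and the ependymal gene Rarres2 were higher. Gfap rose from 57.7 to 548 CPM (3.25, SE 0.851, adjusted p 0.0283). Between Fl/Fl 4-OHT and untreated cultures 4 of 8 neural stem cell markers and 5 of 6 neuron markers were lower, 5 of 6 oligodendrocyte markers and 3 of 3 ependymal markers tested were higher, and 3 of 5 astrocyte markers were called. Without the Fl/Fl library 29 or 39 these counts were 3 of 8 for neural stem cell and 4 of 6 for neuron markers, and the same for the other 3 lists.

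The genes whose level followed each member most closely were found by Pearson's r of log2(CPM + 0.5) over the 15 libraries, taking the 13333 genes that averaged 1 CPM or more. These correlations are descriptions, since the libraries share groups and mice. The most similar gene was Rprd1a for Sp1 (r = 0.965), Csnk2a2 for Sp2 (0.924), Matr3 for Sp3 (0.946) and Braf for Sp4 (0.832). Sp1 was followed next by Ralgapa1 (0.960) and Cnot1 (0.956), Sp2 by Ggcx (0.894) and Tomm34 (0.869), Sp3 by Zfp65 (0.942) and Cul3 (0.938), and Sp4 by Rcor3 (0.768) and Nipbl (0.767). Among the Klf genes, Klf9 was most like Foxo3 (0.952), Susd4 (0.947) and Rab11fip3 (0.902), and Klf15 most like Zfp444 (0.969), Usf2 (0.960) and Zfp580 (0.959). Klf13 came closest to Sf3a1 (0.887), Notch1 (0.883) and Notch3 (0.864), and Klf10 to Rassf3 (0.909), Lrrfip1 (0.907) and Ddx11 (0.880). Klf6 was most like Uba6 (0.920), Sms (0.877) and Socs6 (0.857), and Klf4 like Cebpa (0.833), Ets2 (0.804) and Sertad1 (0.798). No member was among the 3 closest genes of another.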

How the data were processed

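Strand-specific libraries from poly(A) RNA were made for 15 aNSC cultures and sequenced from a single end on shared lanes. Mapping by the authors was to GRCm38 with STAR 2.5.4b and featureCounts 1.5.0 counted the uniquely mapped reads per Ensembl gene in stranded mode (versions from the submitters' processing notes). The deposited values are raw counts. Genes with near-identical copies are undercounted, since the authors' counts leave out reads that map to several places. Groups, mouse numbers, age and treatment days were taken from the labels. The labels and the methods describe the 4-OHT exposure differently in dose and schedule, so the duration is uncertain and no dose is given. The 10 genes and all gene lists were chosen with earlier results of these data known.

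Gene IDs were matched to a GENCODE annotation of GRCm38 (53620 of 53801). Each comparison was fitted on its own 10 libraries with edgeR 4.0.16 in R 4.3.3: filterByExpr with a minimum count of 10, TMM scaling, the quasi-likelihood F test, and Benjamini-Hochberg adjustment over all genes tested, called under 0.05. CPM were set on TMM-scaled totals, on which the floor of 3 counts, which covers counting error only, is 0.0932 to 0.117 CPM. Exact two-sided permutation tests (252 arrangements) and sign-flip tests over mice (32 arrangements) used log2(CPM + 0.5). Cultures of the same mouse deviated together from their group means (r of 0.153 to 0.634 over 14821 genes, against -0.559 to 0.35 for different mice), so a further fit for 4-OHT in Fl/+ cultures took the mouse as a replicate block. The counts of lists and markers for that comparison are from the fit without the block. Each culture stands for 1 mouse, so p-values measure the spread between cultures of different mice. Alternatives were DESeq2 1.42.0, its size factors, library size alone, no filter, 10 counts in every library, one fit over 15 libraries, sex as a covariate and leaving out each library.

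Genes were named by rule: Trrap, the 10 members, the other Sp and Klf genes tested, at most the 3 called genes of each list with the largest log2 fold change, and the 3 genes most correlated with each member. Some genes of the lists are not reported here by name, and the counts, medians and sums include them. Levels between genes were compared per kb of the union of exons. Start site sequences are from RefSeq (GRCm38.p6).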

Additional observations from a re-analysis of the deposited data

How the results depend on the processing

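Depth did not limit the members, whose group means lay far above the floor. After Trrap deletion 3 to 4 members were called over all alternatives, beside 14.1% (no filter) to 33.4% (10 counts in every library) of all genes. The calls of Sp2 and Klf13 were kept in each. For 4-OHT in Fl/+ cultures the count of members called moved from 0 (13.8% of all genes called) to 1 with DESeq2 (16.6%), to 2 with library size alone (14.2%), one fit over 15 libraries (17.7%) or sex as a covariate (19.8%), and to 4 with the replicate block by mouse (25.7%). It was 0 to 1 when 1 library was left out (8.46% to 16.7% of all genes), with 1 without Fl/+ untreated 36 or Fl/+ 4-OHT 19. All genes called there moved from 2044 to 3809 with the replicate block, and to between 1271 (without Fl/+ 4-OHT 19) and 2522 (without Fl/+ untreated 36) when 1 library was left out, with 1311 without Fl/+ 4-OHT 35. For Fl/Fl 4-OHT against untreated cultures 1 to 3 members were called when 1 library was left out (24.3% to 31.0% of all genes), with 1 without the untreated libraries 19 or 26 or the Fl/Fl libraries 27, 29 or 39. Without the Fl/Fl library 29 or 39, 25.7% or 25.9% of all genes were called there, and 28.3% or 26.7% after Trrap deletion. The estimates that turned sign were not called in any setting. They were Klf15 after Trrap deletion with sex as a covariate (0.003) and without Fl/+ 4-OHT 26 (0.267, in a range of -0.267 to 0.267 over the fits without 1 library). For 4-OHT in Fl/+ cultures Sp2 turned with library size alone (0.015) and without untreated 24 (0.001, in a range of -0.081 to 0.001), and Sp4 without untreated 19 (-0.049) or 35 (-0.015) or Fl/+ 4-OHT 36 (-0.013, in a range of -0.049 to 0.135). Between Fl/Fl 4-OHT and untreated cultures Klf6 turned with library size alone (0.051) and without untreated 35 (0.025) or Fl/Fl 29 (0.016, in a range of -0.097 to 0.025), and Klf9 without untreated 36 (-0.012, in a range of -0.012 to 0.133). The causes were not tested. With the longest transcript in place of the exon union, levels per kb in untreated cultures were higher for all 10 genes, by more than 1 SD for Sp2 (10.8), Sp3 (27.2), Klf10 (65.3) and Klf13 (15.5), and the order of the 10 genes was unchanged there. Library size alone shifted the median of all genes by under 0.1 on the log2 scale.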
